A study of Mus musculus with 18 samples.

Results

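The genes described here serve protein folding in the endoplasmic reticulum (ER) and the unfolded protein response (UPR). There are 41 of them among the 54232 genes of the count table, and they were picked by name for their known function. The rule itself uses no measured value, but earlier results of these data were known when the list was made. By role, 7 are sensors and transcription factors of the response, 4 are stress effectors, 9 are chaperones and cochaperones, 2 are lectin chaperones, 5 form disulfide bonds, 8 serve ER-associated degradation and 6 serve translocation and early processing of nascent chains. All 41 were found in the table, and all 41 had enough counts to be tested in every comparison.

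Acinar cells of the lacrimal gland (LG) release tear proteins and are packed with rough ER, where these proteins are translocated, glycosylated, folded and disulfide-bonded before export. When unfolded protein accumulates in the ER, the sensors IRE1 (encoded by Ern1), PERK (Eif2ak3) and ATF6 start the UPR, which raises the transcription of chaperone and degradation genes, slows general translation and, when it lasts, turns on effectors such as CHOP (Ddit3). Plasma cells also have a large ER and use IRE1 and its target XBP1 to build it, so both kinds of secretory cell can contribute these transcripts to an inflamed gland.

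RNA sequencing was done on LGs of male mice of the strains BALB/cJ (BALB/c) and NOD.B10Sn-H2b/J (NOD.H-2b) aged 2, 4 and 6 months (2M, 4M, 6M), with 3 mice in each of the 6 groups and 18 in all. No mouse was treated. NOD.H-2b mice carry the H2b haplotype on the nonobese diabetic background, do not become diabetic and develop lymphocytic infiltration of the LG; BALB/c is a separate inbred strain and not their congenic parent, so every difference between the groups at one age also includes the difference in genetic background. Each library came from the gland of 1 mouse, freed of its capsule and the tissue around it. Assigned reads ranged from 49480781 to 103936830 per library (median 59005987.5). In whole glands, fewer cells of a type and less RNA per cell cannot be told apart.

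Levels are given as CPM, the read count of a gene relative to the size of its library, with library sizes scaled over the 18 mice by the trimmed mean of M values (TMM), and the log2 fold change is that of NOD.H-2b over BALB/c unless another contrast is named. A gene was called at an adjusted p-value under 0.05 in the quasi-likelihood test of edgeR, with Benjamini-Hochberg adjustment over all genes tested.

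The promoters of some of these genes hold known letters of the ER stress response. The rule used no sequence, but the genes were picked for their known part in folding and this response. A larger share of such letters among them can therefore follow from the choice. UPR factors are known to bind the ER stress response element (ERSE, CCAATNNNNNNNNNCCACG) and its shorter form ERSE-II (ATTGG, 1 base of any kind, CCACG). These letters were sought on both strands of the 300 bases around the start of each gene (250 before, 50 after; RefSeq, GRCm38.p6), which were given for 34 of the 41 genes (not for Atf6, Creb3l1, Hyou1, Manf, Derl1, Sec61a1 and Ostc). ERSE was present in 9 of the 34 (26.5%) and in 37 of 27025 genes overall (0.137%). ERSE-II was present in 2 more (5.9%; 0.0444% of all genes), so that 11 of 34 (32.4%) held either form. The 11 were Hspa5, Hsp90b1, Dnajb11, Dnajc3 and Creld2 among the chaperones, both lectin chaperones Calr and Canx, Pdia6, and Herpud1, Syvn1 and Derl3 of the degradation group; no sensor, stress effector or translocation gene with a promoter entry held one. The letters TGACGTGG (UPRE, 0.714% of all genes) and TGATGNAAT (CARE, 1.08%), known as sites of XBP1 and ATF6 and of ATF4, were found in 0 of the 34. A match is a description of the letters and not proof of a bound site, and the absence of a match says nothing about a factor. Below are the stretches around the element for 6 genes whose levels are described further on, 5′ to 3′ along the gene, with the fixed letters of the element in capitals; in Calr, Creld2 and Derl3 the element lies on the opposite strand.
Hspa5 (chr2:34772005-34772063, plus strand): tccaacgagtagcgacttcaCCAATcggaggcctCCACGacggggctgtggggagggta
Calr (chr8:84847055-84847113, minus strand): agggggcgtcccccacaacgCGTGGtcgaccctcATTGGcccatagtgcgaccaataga
Creld2 (chr15:88819500-88819558, plus strand): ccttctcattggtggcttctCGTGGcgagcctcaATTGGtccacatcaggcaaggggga
Pdia6 (chr12:17266471-17266529, plus strand): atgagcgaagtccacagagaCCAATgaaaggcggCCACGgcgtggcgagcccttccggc
Derl3 (chr10:75893222-75893280, plus strand): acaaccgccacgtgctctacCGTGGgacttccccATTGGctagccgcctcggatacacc
Herpud1 (chr8:94386357-94386407, plus strand): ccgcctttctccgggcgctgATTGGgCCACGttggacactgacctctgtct

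Counted from the start of the gene, the element of Hspa5 begins at position -65 and that of Herpud1 at -52, while those of Calr and Derl3 begin farther out at -162 and -156. Hsp90b1 held 2 ERSE, 1 on each strand.

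Per kilobase of exon, and averaged over the 18 mice, the chaperones and oxidoreductases were the most abundant of these transcripts. P4hb (protein disulfide isomerase) had the highest level at 761.9 CPM per kb, followed by Calr (calreticulin) at 353.6 and Hspa5 (BiP, the main Hsp70 of the ER) at 221.9. Herpud1 and Dnajc3 followed at 154.4 and 127.4 CPM per kb. The lowest were Chac1 at 2.61, Ddit3 at 1.67 and Trib3 at 1.30 CPM per kb; these 3 stress effectors also had the fewest raw counts, down to 57, 80 and 24 in 1 library. The summed level of the 41 genes was 12490 ± 161, 11700 ± 129 and 12460 ± 915 CPM (mean ± SD, n = 3) in BALB/c at 2M, 4M and 6M and 11660 ± 797, 10120 ± 834 and 8721 ± 1050 CPM in NOD.H-2b. On the TMM scale the sums of the strains overlapped at 2M and did not overlap at 4M or 6M. At 4M and 6M every NOD.H-2b mouse was below every BALB/c mouse. Without TMM scaling the sums were not compared, so this separation is stated for the TMM scale only.

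The first question was whether these genes differ between the strains at each age. At 2M, NOD.H-2b had 7 of the 41 genes higher and 9 lower than BALB/c, against 22.5% of all tested genes called higher and 17.2% lower; with library totals alone as the scale this turned to 18 higher and 2 lower, and in 1 fit of all 18 mice 3 were higher and 5 lower. At 4M, 3 genes were higher and 14 lower (all genes 23.4% and 19.2%; library totals 6 and 5). At 6M, 2 genes were higher and 27 lower (all genes 28.6% and 25.8%; library totals 6 and 9). Averaged over the ages in a fit of all mice, 3 were higher and 27 lower (all genes 32.5% and 33.1%), and with library totals 14 and 9. With library totals, the shares of all genes called higher were 37.8%, 27.7%, 47.8% and 53.3% at 2M, 4M, 6M and on average. The shares called lower were 8.33%, 11.2%, 9.01% and 14.3%. In 1 fit of all 18 mice they were 19.8% higher and 16.9% lower at 2M. The split between higher and lower calls therefore depended on the scale: without TMM the median log2 fold change of all genes moved to 0.20, 0.15 and 0.38 at 2M, 4M and 6M. Set against the median of all genes, the median of the 41 genes was -0.06, -0.17 and -0.38 with TMM and -0.06, -0.17 and -0.39 with library totals. A change of scale shifts all genes by nearly the same amount, so this difference could hardly move. It does not show which scale is right.

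Single calls depended on the scale as well. Of the genes called lower, Sel1l and Derl3 were also called with library totals at 2M. At 4M Ern1, Creb3l1, Creb3l2, Sel1l and Derl3 were, and at 6M Ern1, Chac1, Dnajc3, Pdia3, P4hb, Edem1, Sel1l, Derl3 and Sec61a1. All other genes called lower at an age were not called lower with library totals. Ddit3 and Trib3 were called higher at every age on either scale.

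Differences were mostly smaller than 2-fold. A called change of at least 2-fold was found for 1 of the 41 genes at 2M and at 4M (Trib3 both times, higher) and for 2 at 6M (Trib3 higher, Chac1 lower), against 15.8%, 20.3% and 24.8% of all tested genes. The count at 4M was 0 without BALB/c replicate 3, and that at 6M was 1 without BALB/c replicate 2 or NOD.H-2b replicate 1 and 4 without NOD.H-2b replicate 2. The values of the 3 NOD.H-2b mice were all above those of the 3 BALB/c mice for 7, 3 and 2 of the 41 genes at 2M, 4M and 6M, and all below for 17, 18 and 30. Over all tested genes the shares without overlap were 25.3%, 28.4% and 31.3% above and 28%, 27% and 33.4% below. Ddit3 and Trib3 were called higher at all 3 ages. Ern1, Creb3l1, Creb3l2, P4hb, Edem1, Edem2, Sel1l, Derl3 and Sec61a1 were called lower at all 3 ages, and 8 genes were called at none (Atf4, Hsp90b1, Dnajb9, Creld2, Ero1l, Herpud1, Syvn1 and Ssr1). Among 16703 genes tested at all ages, 15% were called higher and 11.5% lower at every age, and 34.3% were called at none. Calr was called in both directions, higher at 2M and lower at 6M, as were 0.952% of all genes.

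**Figure D1:**
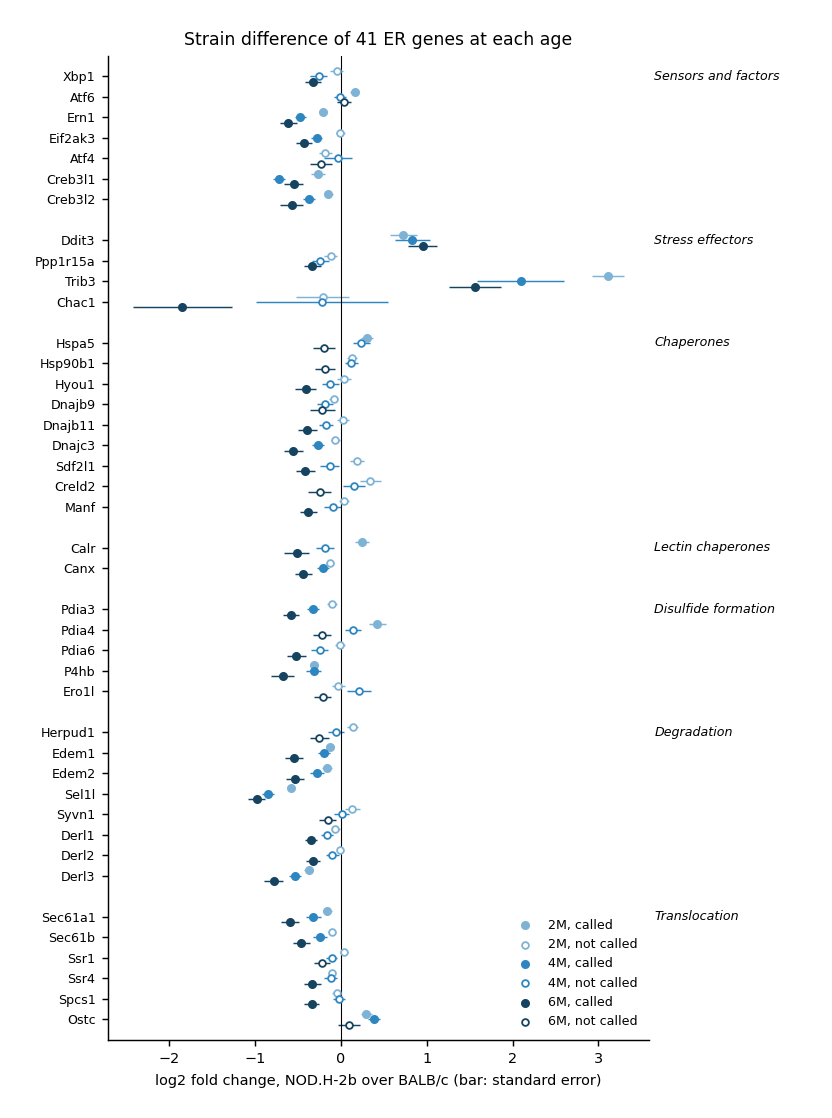
Log2 fold change of NOD.H-2b over BALB/c for each of the 41 genes (rows, grouped by role) at 2M, 4M and 6M; points are edgeR estimates with TMM scaling, bars are ± 1 standard error, and filled points are called at an adjusted p under 0.05. With age the points move to the left. Genes called lower go from 9 at 2M to 14 at 4M and 27 at 6M (2, 5 and 9 with library totals as the scale). Of all genes, 17.2%, 19.2% and 25.8% were called lower with TMM and 8.33%, 11.2% and 9.01% with library totals. Ddit3 and Trib3 lie on the right at every age.

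Among the sensors and transcription factors, Ern1, whose product IRE1 cuts the Xbp1 mRNA to yield the active factor, was lower at every age. The BALB/c mice had 198.7, 214.1 and 214.0 CPM at 2M, 233.4, 210.9 and 224.1 CPM at 4M and 203.8, 204.5 and 221.1 CPM at 6M. The NOD.H-2b mice had 181.3, 172.3 and 171.0 CPM at 2M, 160.1, 165.1 and 154.6 CPM at 4M and 115.7, 149.1 and 136.4 CPM at 6M. The strains did not overlap at any age. The log2 fold change was -0.21 ± 0.05 (SE), -0.47 ± 0.07 and -0.61 ± 0.10, with adjusted p = 0.00376, 0.000429 and 0.000649, and these calls held when each mouse was left out in turn. Creb3l1 and Creb3l2, ER-anchored transcription factors released by cleavage like ATF6, were also lower, by log2 fold changes of -0.73 ± 0.07 and -0.37 ± 0.07 at 4M and -0.55 ± 0.11 and -0.57 ± 0.13 at 6M. Their calls at 2M (-0.26 ± 0.08 and -0.15 ± 0.05) were lost without BALB/c replicate 1 or 2 for Creb3l1 (adjusted p up to 0.0973) and without BALB/c replicate 2 or 3 or NOD.H-2b replicate 1 for Creb3l2 (up to 0.151). Eif2ak3 (PERK) was near equal at 2M (-0.01 ± 0.05) and lower at 4M (-0.29 ± 0.06, adjusted p = 0.00549) and 6M (-0.43 ± 0.09, adjusted p = 0.00349). Xbp1 was called lower at 6M only among the single ages (-0.33 ± 0.10, adjusted p = 0.0169), with 356.0, 349.4 and 404.0 CPM in BALB/c and 262.9, 291.5 and 309.1 CPM in NOD.H-2b. Gene counts do not separate spliced from unspliced Xbp1 mRNA. Atf4, the factor translated when PERK is active, was called at no age (-0.18 ± 0.08, -0.04 ± 0.16 and -0.23 ± 0.13). Atf6 was called higher at 2M (0.16 ± 0.05, adjusted p = 0.0265) and had log2 fold changes of -0.01 and 0.03 at 4M and 6M. Of these, the 2M call of Atf6 was lost without BALB/c replicate 1 or 2 or NOD.H-2b replicate 3 (adjusted p up to 0.134), and the 6M call of Xbp1 without BALB/c replicate 3 (0.06). With library totals the log2 fold changes of Creb3l2 at 2M and Xbp1 at 6M turned to 0.0387 and 0.0559.

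The 4 stress effectors did not move as one. Ddit3, which encodes the transcription factor CHOP, had 2.10, 1.83 and 2.06 CPM in BALB/c and 3.60, 2.94 and 3.11 CPM in the NOD.H-2b mice at 2M. At 6M the values were 2.42, 2.00 and 1.87 CPM against 4.26, 3.68 and 4.02 CPM, and the strains did not overlap at any of the ages. Its log2 fold change was 0.73 ± 0.16, 0.83 ± 0.21 and 0.95 ± 0.17 at 2M, 4M and 6M (adjusted p = 0.0036, 0.00876 and 0.000895), and no call was lost when a mouse was left out. The annotation holds a second gene named Ddit3 on the same strand and Gm4189 and Mars on the other, so the counts of Ddit3 may not be those of one transcript. Trib3, a pseudokinase known as a target of ATF4 and CHOP, had the largest increase of the 41 genes at each age. It was at 0.69, 1.06 and 0.71 CPM in BALB/c and 7.76, 5.92 and 7.01 CPM in the NOD.H-2b mice at 2M. At 4M the BALB/c mice had 1.79, 0.49 and 0.61 CPM and the NOD.H-2b mice 2.82, 5.10 and 4.37 CPM; at 6M they had 1.07, 1.32 and 0.56 CPM and 2.85, 3.54 and 2.21 CPM. Each NOD.H-2b mouse was above each BALB/c mouse of its age. The log2 fold change of Trib3 came to 3.11 ± 0.19, 2.09 ± 0.51 and 1.56 ± 0.31 at 2M, 4M and 6M (adjusted p = 3.22e-07, 0.0162 and 0.00176); the 4M call was lost without BALB/c replicate 3 (1.83, adjusted p = 0.0503) and without a filter on low counts (2.08, adjusted p = 0.0713).

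Ppp1r15a (GADD34, which directs a phosphatase to the translation factor that PERK phosphorylates) and Chac1 (an enzyme that breaks down glutathione, also known as an ATF4 target) did not follow Ddit3 and Trib3. Chac1 varied most between mice: BALB/c at 4M ranged from 1.28 to 7.58 CPM. At 6M it had 6.01, 8.44 and 4.44 CPM in BALB/c and 0.74, 3.22 and 1.19 CPM in NOD.H-2b, a log2 fold change of -1.85 ± 0.58 (adjusted p = 0.0372). That call was lost without BALB/c replicate 1 or 2 or NOD.H-2b replicate 1 or 3 (adjusted p up to 0.11) and without a filter on low counts (0.118). Ppp1r15a was called lower at 6M (-0.33 ± 0.10, adjusted p = 0.0138; 0.054 without NOD.H-2b replicate 3), but its log2 fold change was 0.0507 with library totals. At 6M this group therefore held 2 calls in each direction.

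Of the 9 chaperones and cochaperones, 1 was called higher at 2M and none lower, 1 was called lower at 4M, and 5 were called lower at 6M. Hspa5 had 932.9, 941.5 and 922.1 CPM in BALB/c and 1122, 997.4 and 1225 CPM in the NOD.H-2b mice at 2M, without overlap. At 4M it had 808.5, 873.4 and 819.9 CPM against 941.0, 869.1 and 1122 CPM, and at 6M 887.9, 882.9 and 1103 CPM against 718.6, 896.7 and 828.1 CPM, with overlap at both ages. Its log2 fold change was 0.30 ± 0.07 at 2M (adjusted p = 0.0045, held without each mouse, but 0.0649 in 1 fit of all 18 mice), 0.23 ± 0.10 at 4M (adjusted p = 0.0836) and -0.20 ± 0.13 at 6M (adjusted p = 0.221). Dnajc3, a DnaJ cochaperone of BiP, was lower at 4M (-0.27 ± 0.07, adjusted p = 0.0136) and 6M (-0.55 ± 0.12, adjusted p = 0.00253). The other genes called lower at 6M were Sdf2l1 (-0.42 ± 0.11), a partner of ERdj3, Hyou1 (-0.41 ± 0.12), a large Hsp70-like exchange factor for BiP, Dnajb11 (-0.39 ± 0.11), which encodes ERdj3, and Manf (-0.38 ± 0.10), a secreted factor that binds BiP. Hsp90b1 (GRP94), Dnajb9 and Creld2 were called at no age, with log2 fold changes at 6M of -0.19, -0.22 and -0.25. The call of Hyou1 was lost without BALB/c 6M replicate 3 (adjusted p = 0.0666), and that of Dnajc3 at 4M without BALB/c replicate 1 or 2 or NOD.H-2b replicate 2 (up to 0.0695). Hsp90b1 and Manf overlap other genes of the annotation on the same strand, so their counts are uncertain.

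The lectin chaperones Calr and Canx (calnexin) hold newly glycosylated proteins until they are folded. Calr had 1019, 1050 and 990.8 CPM in BALB/c and 1230, 1007 and 1291 CPM in the NOD.H-2b mice at 2M, so that 1 NOD.H-2b mouse lay within the BALB/c range. At 6M it had 1012, 1062 and 1295 CPM in BALB/c and 631.3, 862.6 and 804.8 CPM in NOD.H-2b, without overlap. The log2 fold change went from 0.25 ± 0.08 at 2M (adjusted p = 0.0406) through -0.18 ± 0.11 at 4M (adjusted p = 0.194) to -0.51 ± 0.15 at 6M (adjusted p = 0.0129). The 2M call was lost when any mouse but NOD.H-2b replicate 2 was left out (adjusted p up to 0.133), and the 6M call without BALB/c replicate 3 (0.0531). Canx was lower at 4M (-0.21 ± 0.07, adjusted p = 0.0396) and 6M (-0.44 ± 0.10, adjusted p = 0.00482); its 4M call was lost without any mouse but NOD.H-2b replicate 3 (up to 0.125).

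Disulfide bonds are made by the PDI family, which the oxidase Ero1l recharges. P4hb had 2637, 2653 and 2745 CPM in BALB/c and 2100, 2012 and 2164 CPM in the NOD.H-2b mice at 2M. The 6M values were 2475, 2298 and 2665 CPM against 1258, 1651 and 1613 CPM, and no mouse of one strain lay in the range of the other at any age. P4hb was lower by log2 fold changes of -0.31 ± 0.05, -0.32 ± 0.09 and -0.68 ± 0.14 at 2M, 4M and 6M (adjusted p = 0.00045, 0.0159 and 0.00204); the 4M call was lost without BALB/c replicate 1 or 2 or NOD.H-2b replicate 2 (up to 0.0761). Pdia3, the partner of Calr and Canx, was not called at 2M (-0.10 ± 0.06) and was lower at 4M (-0.33 ± 0.07, adjusted p = 0.00418) and 6M (-0.58 ± 0.10, adjusted p = 0.000658). Pdia6 was called lower at 6M (-0.52 ± 0.11, adjusted p = 0.00282). Pdia4 took the other direction at 2M, with 109.9, 105.4 and 101.3 CPM in BALB/c and 143.3, 114.9 and 154.6 CPM in NOD.H-2b (0.42 ± 0.10, adjusted p = 0.0136; 0.0565 without BALB/c replicate 3). It had log2 fold changes of 0.14 ± 0.09 and -0.22 ± 0.11 at 4M and 6M, neither called. Ero1l was called at no age.

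**Figure D2:**
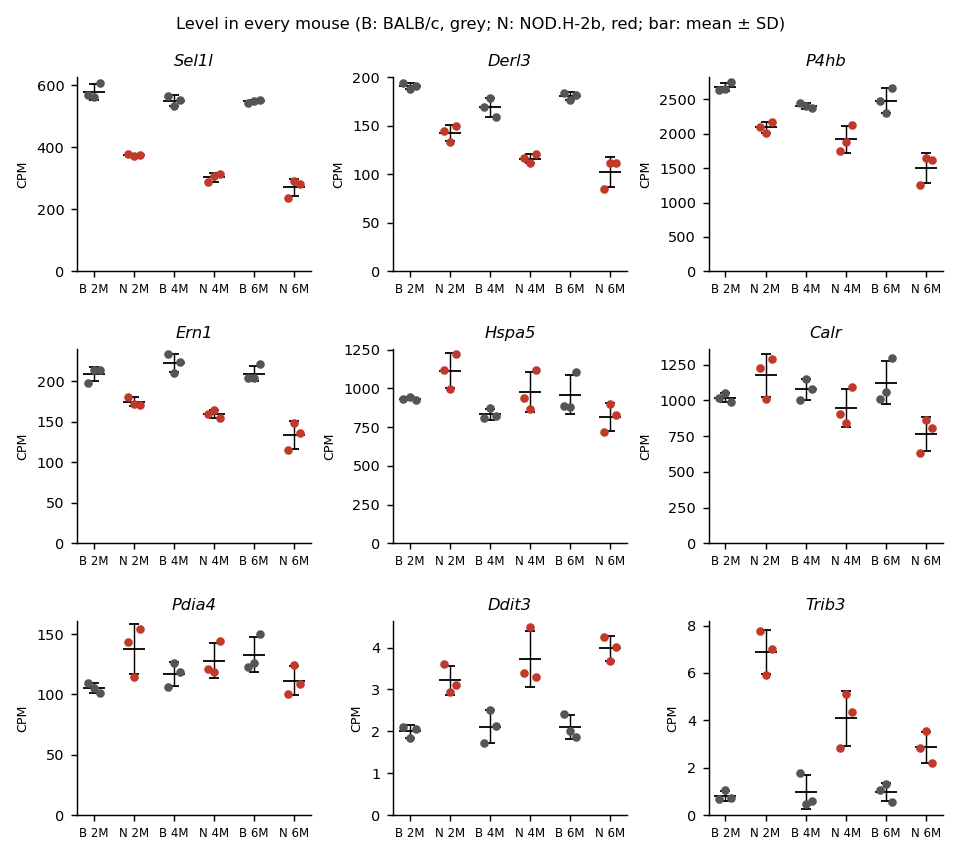
CPM (TMM-scaled, linear axis from 0) of 9 genes in each of the 18 mice; each point is 1 mouse, and bars are the mean ± SD of the 3 mice of a strain and age. Sel1l, Derl3, P4hb and Ern1 are lower in every NOD.H-2b mouse than in every BALB/c mouse of the same age, Ddit3 and Trib3 are higher, and Hspa5, Calr and Pdia4 are above BALB/c on average at 2M and below it at 6M.

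ER-associated degradation carries misfolded proteins back to the cytosol, and of the 41 genes its member Sel1l had the largest called decrease at 2M and 4M, and at 6M the largest after Chac1. The product of Sel1l is the adaptor that joins the ubiquitin ligase HRD1 (Syvn1) to its clients. Sel1l had 567.5, 560.7 and 607.4 CPM in BALB/c and 378.8, 372.2 and 374.9 CPM in the NOD.H-2b mice at 2M. At 4M it had 566.5, 533.5 and 552.3 CPM against 288.0, 307.2 and 314.1 CPM, and at 6M 542.9, 549.8 and 551.5 CPM against 237.9, 290.5 and 283.3 CPM. The strains stood far apart at every age, with mean levels of 548.1 ± 4.54 and 270.6 ± 28.5 CPM (SD, n = 3) at 6M. The log2 fold change was -0.58 ± 0.05, -0.86 ± 0.07 and -0.98 ± 0.10, with adjusted p = 2.65e-06, 1.5e-05 and 2.68e-05. Derl3, a member of the derlin family that is known to be high in secretory cells, had 194.6, 187.7 and 190.6 CPM against 145.0, 133.2 and 150.0 CPM at 2M, and 183.7, 176.6 and 181.8 CPM against 84.7, 111.6 and 111.3 CPM at 6M. Its log2 fold change was -0.38 ± 0.05, -0.53 ± 0.07 and -0.78 ± 0.11 (adjusted p = 0.000163, 0.000257 and 0.000215). The calls of Sel1l and Derl3 held without each mouse.

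Edem1 and Edem2, which pick out misfolded glycoproteins by trimming their mannose, were lower by -0.13 and -0.17 at 2M, by -0.20 and -0.28 at 4M and by -0.55 ± 0.11 and -0.54 ± 0.10 at 6M on the log2 scale. The 6M calls held without each mouse (adjusted p = 0.00184 and 0.00153 with all mice). At 2M the call of Edem1 was lost without any BALB/c mouse (adjusted p up to 0.14) and that of Edem2 without any mouse but NOD.H-2b replicate 3 (up to 0.119). At 4M the call of Edem1 was lost without any mouse but NOD.H-2b replicate 3 (up to 0.15) and that of Edem2 without any BALB/c mouse or NOD.H-2b replicate 2 (up to 0.0801). Derl1 and Derl2 were called lower at 6M only among the single ages (-0.35 ± 0.07 and -0.33 ± 0.08), and turned to 0.0319 and 0.0512 with library totals and 0.0388 and 0.0592 relative to the epithelial median described further on. With library totals Edem1 and Edem2 turned to 0.0561 and 0.0173 at 2M. The ligase Syvn1 and the stress-induced membrane protein Herpud1 were called at no age, with log2 fold changes at 6M of -0.15 ± 0.10 and -0.25 ± 0.11. Sel1l and Syvn1, which work in one complex, thus had log2 fold changes of -0.98 and -0.15 at 6M.

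Nascent chains enter the ER through the Sec61 channel. Sec61a1, its pore subunit, had 570.4, 564.5 and 597.1 CPM in BALB/c and 511.1, 469.9 and 526.6 CPM in the NOD.H-2b mice at 2M, and 544.4, 514.8 and 549.4 CPM against 305.3, 378.1 and 356.4 CPM at 6M. The strains did not overlap, and the log2 fold change was -0.16 ± 0.05, -0.32 ± 0.09 and -0.59 ± 0.10 at 2M, 4M and 6M (adjusted p = 0.0333, 0.0132 and 0.000868). The 2M call was lost without any BALB/c mouse (up to 0.121) and the 4M call without BALB/c or NOD.H-2b replicate 2 (up to 0.0591). Sec61b, a small channel subunit, Ssr4 of the translocon-associated complex and Spcs1 of the signal peptidase were also called lower at 6M (-0.46 ± 0.10, -0.33 ± 0.10 and -0.34 ± 0.09), and Sec61b at 4M (-0.24 ± 0.09). The 6M call of Ssr4 was lost without BALB/c or NOD.H-2b replicate 3 (up to 0.0562), and the 4M call of Sec61b without any mouse but NOD.H-2b replicate 3 (up to 0.136). With library totals Sec61a1 turned to 0.0288 at 2M, and Ssr4 and Spcs1 to 0.0445 and 0.037 at 6M. Ostc, a subunit of the oligosaccharyltransferase, was the exception. It had 44.7, 45.0 and 43.1 CPM in BALB/c and 49.2, 51.2 and 57.3 CPM in the NOD.H-2b mice at 2M. It was higher at 2M and 4M (0.29 ± 0.06 and 0.38 ± 0.08, adjusted p = 0.00364 and 0.0024, held without each mouse, but 0.0642 at 2M in 1 fit of all 18 mice), and at 6M its log2 fold change was 0.09 ± 0.13.

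Counts of calls at 2M and 4M also moved with single mice. The 9 genes called lower at 2M became 5, 4 and 5 without BALB/c replicates 1, 2 and 3 and 15 without NOD.H-2b replicate 3. The 14 at 4M became 8 and 7 without BALB/c replicates 1 and 2, 7 without NOD.H-2b replicate 2 and 22 without NOD.H-2b replicate 3, and the 3 called higher at 4M became 5 without NOD.H-2b replicate 2. The 27 called lower at 6M stayed between 23 and 31. Of the single calls, 8 of 16 at 2M, 9 of 17 at 4M and 23 of 29 at 6M held without each mouse of that age.

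The second question was how the genes change with age within each strain. In BALB/c, 2 of the 41 genes rose from 2M to 4M (Creb3l1 and Pdia6, log2 changes of 0.24 ± 0.06 and 0.22 ± 0.05) and 9 fell, among them Ero1l (-0.46 ± 0.09), Dnajb9 (-0.40 ± 0.05) and Ostc (-0.36 ± 0.05), against 6.1% and 5.01% of all genes. The 2 that rose became 1 without BALB/c 2M replicate 1 or 3 or 4M replicate 2 and 0 without 2M replicate 2, and the 9 that fell became 4 without any 2M mouse or 4M replicate 3; Ero1l, Dnajb9, Ostc and Ssr1 were called without each of the mice. In 1 fit of all 18 mice the counts were 0 and 3, against 2.96% and 1.75% of all genes. From 4M to 6M, 1 gene rose in BALB/c, Ero1l (0.44 ± 0.08, adjusted p just under 0.05), and 0 fell, against 0.174% and 0.132% of all genes. Of the fits that left out 1 mouse, only that without 6M replicate 3 called Ero1l here. In 1 fit of all 18 mice Ero1l was not called, while 1 other of the 41 genes was called higher. In NOD.H-2b, 0 genes rose and 10 fell from 2M to 4M, against 10.3% and 5.48% of all genes. The 10 were Eif2ak3, Creb3l2, Trib3, Dnajb9, Dnajc3, Herpud1, Sel1l, Derl2, Derl3 and Ssr1, and the largest decreases were those of Trib3 (-0.75 ± 0.21), Dnajb9 (-0.47 ± 0.09) and Herpud1 (-0.42 ± 0.08). The count of 10 became 3 and 0 without NOD.H-2b 2M replicates 1 and 3, and 6 and 17 without NOD.H-2b 4M replicates 2 and 3. The calls of Dnajb9, Herpud1 and Ssr1 were lost only without NOD.H-2b 2M replicate 3 (adjusted p of 0.0752, 0.0682 and 0.0658), and that of Trib3 without any of these mice but 4M replicate 2 (up to 0.135). From 4M to 6M in NOD.H-2b edgeR called 0 genes in either direction, against 0.00555% of all genes higher and 0% lower. At an unadjusted p under 0.05 in edgeR, 2 of the 41 were lower and 0 higher there, against 1294 and 1196 of the 18026 genes tested. DESeq2 called 0 as well (3 at an unadjusted p under 0.05), while edgeR in 1 fit of all 18 mice called 2 lower. That fit called 3.12% of all genes lower and 0.79% higher.

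The third question was whether the change from 2M to 6M differed between the strains, which the interaction of strain and age tests. For 17 of the 41 genes the log2 change was lower in NOD.H-2b than in BALB/c, and for 0 it was higher. The shares of all genes were 9.09% and 7.04%. With library totals as the scale the counts were 5 and 0, against 3.19% and 9.67% of all genes. By role, the 17 were 2 sensors (Ern1 and Eif2ak3), 5 chaperones (Hspa5, Dnajb11, Dnajc3, Sdf2l1 and Manf), Calr, 3 oxidoreductases (Pdia3, Pdia4 and Pdia6), 5 degradation genes (Edem1, Sel1l, Derl1, Derl2 and Derl3) and Sec61a1; no stress effector was among them. Calr differed most of the called genes: its log2 change from 2M to 6M was 0.14 ± 0.12 in the BALB/c mice against -0.62 ± 0.13 in the NOD.H-2b mice, a difference of -0.76 ± 0.18 (adjusted p = 0.00952). Pdia4 changed by 0.33 ± 0.11 and -0.31 ± 0.11 (difference -0.64 ± 0.16, adjusted p = 0.0127), and Sdf2l1 by 0.03 ± 0.12 and -0.57 ± 0.12 (difference -0.60 ± 0.16, adjusted p = 0.0223). Trib3 had the difference -1.55 ± 0.57 (adjusted p = 0.0742) and Ddit3 0.23 ± 0.24 (adjusted p = 0.544), neither called. The count of 17 became 8 and 10 without NOD.H-2b 2M replicates 1 and 3, and 10 and 27 without NOD.H-2b 6M replicates 1 and 2. Eif2ak3, Dnajc3, Calr, Pdia3, Pdia4, Edem1, Sel1l and Sec61a1 were called without each of the 18 mice, and Sdf2l1 was not called without NOD.H-2b 2M replicate 1 or 3 or 6M replicate 1 (up to 0.0578).

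**Figure D3:**
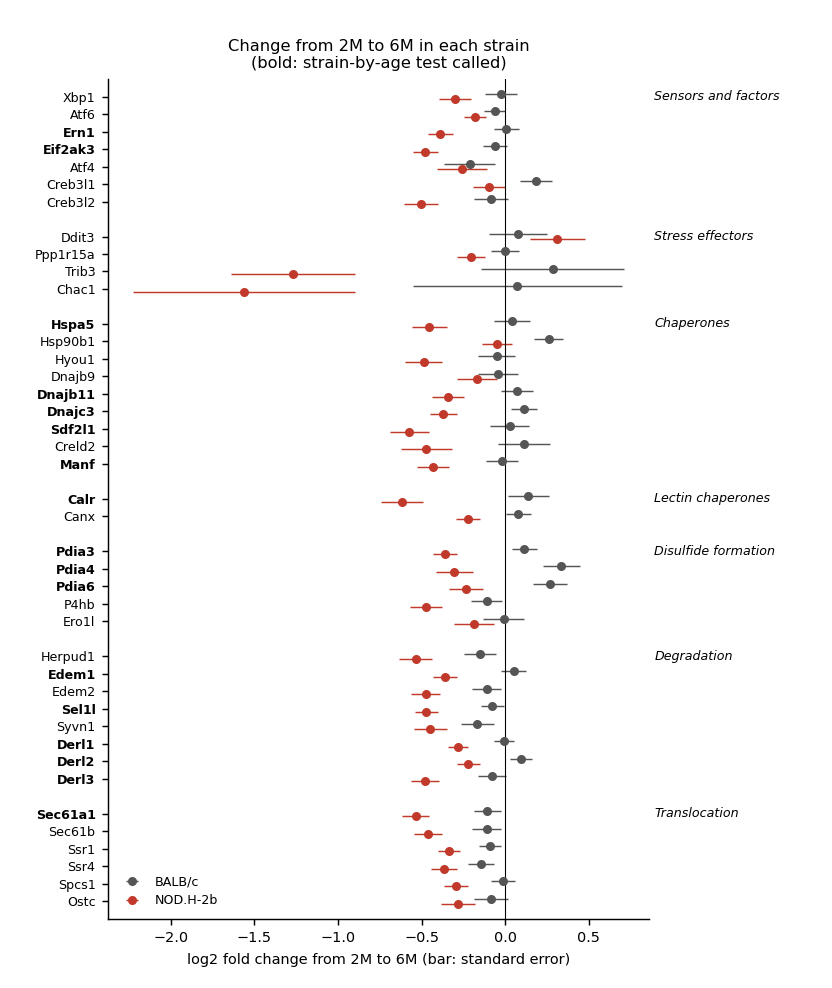
Log2 change from 2M to 6M of each of the 41 genes for both strains (edgeR estimates with TMM scaling, bars ± 1 standard error). Names in bold mark the 17 genes whose changes differ between the strains at an adjusted p under 0.05 (5 with library totals). The change was lower in NOD.H-2b for all 17, and for 9.09% of all genes (3.19% with library totals). The BALB/c points lie around 0 and most NOD.H-2b points lie to their left, with Calr, Pdia4 and Sdf2l1 among the widest gaps.

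Of 99 other genes of the same pathways, taken from lists of the UPR, ER folding, degradation, translocation, glycosylation and retrieval, 98 were in the table and 94 were tested. At 2M 8 were called higher and 29 lower, at 4M 5 and 34, and at 6M 3 and 61, beside 22.5% and 17.2%, 23.4% and 19.2%, and 28.6% and 25.8% of all genes. With library totals, an alternative added after seeing the data, the counts were 30 and 8, 13 and 15, and 24 and 22. On that scale the shares of all genes were 37.8% and 8.33%, 27.7% and 11.2%, and 47.8% and 9.01%. With TMM, the median log2 fold changes of these further genes were -0.08, -0.17 and -0.39. They were -0.05, -0.17 and -0.38 for the 41 genes and 0.01, 0.00 and -0.004 for all genes. At 6M, 23 of 27 translocation and glycosylation genes, 11 of 15 chaperones and glucosidases, 8 of 13 degradation genes, 7 of 7 retrieval genes and 3 of 7 sensors and factors were lower and 0 of any of these were higher. Of 12 disulfide genes 5 were lower and 2 higher, and of 13 ATF4 and CHOP targets 4 were lower and 1 higher. Among genes called on average over the ages with a log2 CPM of 3 or more, the 3 lowest were Vcp (-1.31 ± 0.05), the ATPase that pulls ERAD substrates out of the membrane, Asns (-0.87 ± 0.07), asparagine synthetase and a known ATF4 target, and Os9 (-0.76 ± 0.04), a lectin that works with SEL1L. The 3 highest under the same rule were Nupr1 (1.59 ± 0.13), a stress-induced chromatin protein, and Tmx3 and Txndc12, thioredoxin-like oxidoreductases (0.30 ± 0.06 and 0.19 ± 0.06). Asns and Nupr1, both of the list of ATF4 and CHOP targets, therefore lay on opposite sides of 0, as Chac1 and Trib3 did at 6M.

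After the group means were taken out, the 41 genes deviated together from mouse to mouse. The median Pearson r of the log2 levels over the 18 mice was 0.627 for the 820 pairs (Spearman 0.587), while the same genes had a median r of -0.034 with all other tested genes. The epithelial markers described further on had a median r of 0.387 among themselves and of 0.268 with the 41 genes. These values are a description, since the pairs share libraries and normalization. Within roles the median r was 0.854 for the chaperones, 0.8 for translocation, 0.742 for disulfide formation, 0.671 for degradation and 0.451 for the sensors and factors, but -0.002 for the stress effectors. The highest value was 0.969 for Calr with Pdia3, whose products act together on glycoproteins, and the lowest -0.74 for Atf4 with Ddit3. Trib3 and Chac1 deviated together (r = 0.782), although Trib3 was called higher and Chac1 lower at 6M. NOD.H-2b 6M replicates 1 and 2 lay farthest from their group mean, by -0.19 and 0.15 on the log2 scale averaged over the 41 genes, and without them the median r was 0.486. It was 0.39 over the BALB/c mice and 0.737 over the NOD.H-2b mice.

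**Figure D4:**
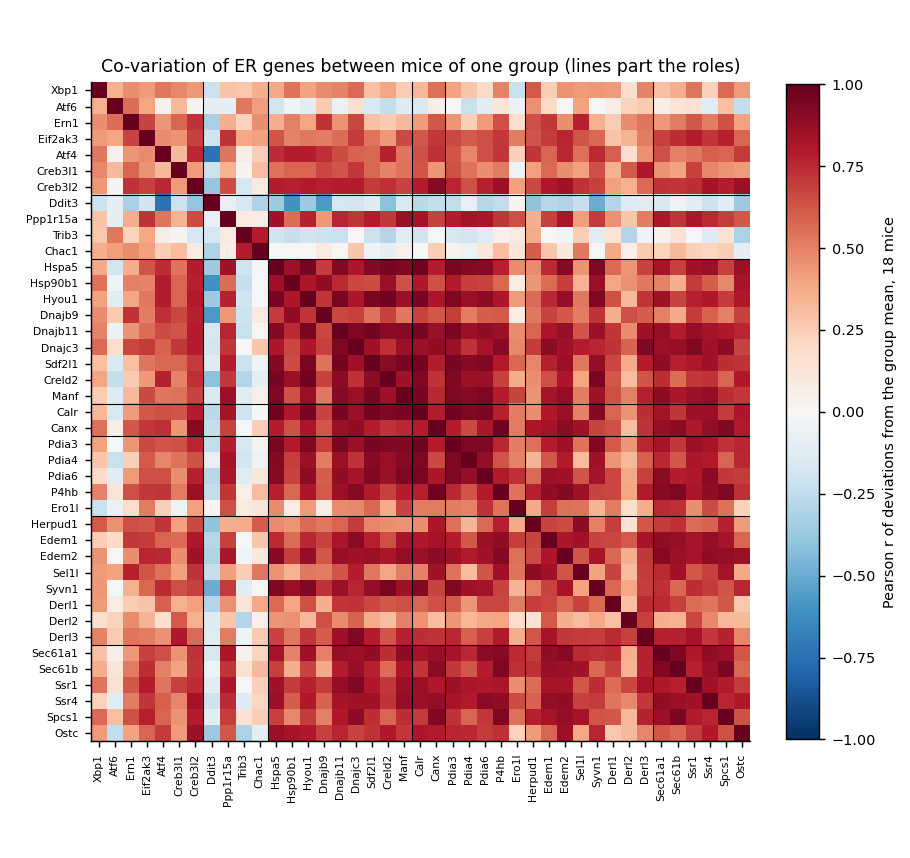
Pearson r between the 41 genes, computed over 18 mice from log2 CPM minus the mean of each mouse's group (colour scale from -1 to 1; genes in both axes grouped by role). Chaperones, disulfide, degradation and translocation genes form a block of high r, and Ddit3, Trib3 and Atf6 stand out with low or negative values.

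Other cell types moved with the groups, and their part in the results was not tested. Of 10 plasma cell markers, 7, 9 and 9 were called higher in NOD.H-2b at 2M, 4M and 6M, and their summed level ranged from 65.99 to 113.5, 888.9 to 1762 and 988.2 to 1731 CPM in BALB/c and from 527.3 to 1302, 4049 to 6014 and 4506 to 5369 CPM in NOD.H-2b. Macrophage markers were higher for 10, 9 and 9 of 10, T cell markers for 9 of 9 tested at 2M and 10 of 10 later, and B cell markers for 3 of 5 tested at 2M and 10 of 10 later. Of 20 epithelial markers, 13 were higher and 3 lower at 2M, 1 and 8 at 4M and 2 and 11 at 6M. Their log2 fold changes ranged from -0.45 to 4.72, from -1.14 to 2.42 and from -0.98 to 3.53 at these ages. Their summed level ranged from 1539 to 1582, 1684 to 1784 and 1624 to 1664 CPM in BALB/c and from 1644 to 1883, 1211 to 1558 and 1047 to 1264 CPM in NOD.H-2b. No plasma cell or epithelial marker was at 0 in any group. The sum of 8 genes for lacrimal secretory products ranged from 39820 to 57250 CPM over the BALB/c mice and from 21930 to 37580 CPM over the NOD.H-2b mice. These 8 did not move as one. At 2M and at 4M 1 was called higher and 3 lower, and at 6M 1 higher and 5 lower. Their log2 fold changes at 6M ranged from -3.58 to 3.11. Skeletal muscle, adipocyte and salivary gland markers summed to at most 1.57, 5.89 and 13.2 CPM in any mouse.

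Set against the median log2 fold change of the epithelial markers (0.35, -0.19 and -0.39 at 2M, 4M and 6M), 38 of the 41 genes lay below it at 2M and 3 above, with 74.4% of all genes below. At 4M 19 lay below and 22 above (all genes 32.7% below), and at 6M 20 below and 21 above (all genes 24.2% below), with a median difference from the epithelial median of -0.40, 0.01 and 0.01. 

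**Figure D5:**
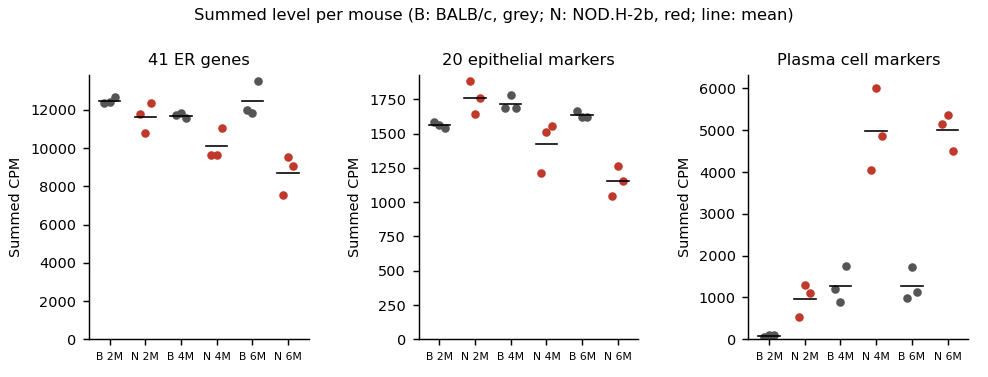
Summed CPM (TMM-scaled) in each of the 18 mice of the 41 ER genes, of 20 epithelial markers and of 10 plasma cell markers, by strain and age. Points are mice and lines the mean of 3 mice. The NOD.H-2b sums of the ER genes go from 11660 to 10120 and 8721 CPM on average, the epithelial sums lie below BALB/c at 4M and 6M, and the plasma cell sums lie above BALB/c at each age.

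The 11 genes with an ERSE or ERSE-II had a median log2 fold change of 0.13 at 2M, -0.17 at 4M and -0.39 at 6M, and the 23 with a promoter entry but no element had -0.10, -0.20 and -0.34. At 2M the first group held Hspa5 and Calr, called higher, but also Derl3, called lower, whose promoter carries the element on the opposite strand as that of Calr does. In the interaction of strain and age, 6 of the 11 and 8 of the 23 were called, all of them lower in NOD.H-2b. So were 3 of the 7 genes without a promoter entry and 9.09% of all genes. With library totals as the scale, 5 of the 41 genes were called lower. These values are a description, and the sets of genes were not tested against each other.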

How the data were processed

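RNA of 18 male LGs was depleted of ribosomal RNA and sequenced as read pairs. The authors trimmed reads with cutadapt, checked them with FastQC, aligned them to GRCm38 with STAR and deposited the raw counts per gene that HTSeq gave; versions, annotation release and strand setting are not given in the sources used here, so antisense overlaps cannot be separated. Their DESeq2-scaled log2 table was not used. Gene names and exon lengths came from GENCODE M21, which held 54079 of 54232 genes, and promoters from RefSeq.

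Groups followed the strain and age of the labels. Counts were tested with edgeR 4.0.16 (R 4.3.3; TMM, filterByExpr, robust quasi-likelihood fit) on the 6 mice of each pair of groups, or on all 18 for the average and for strain by age, with Benjamini-Hochberg adjustment over all genes tested. The replicates are separate mice. The code was tested on simulated counts. Alternatives were DESeq2 1.42.0, other scalings and filters, a replicate block, 1 fit of all mice and leaving out each mouse. For correlations, log2(CPM + 0.5) was used. The 41 genes and all lists were chosen with earlier results of these data known. All 41 genes could be named; of the further genes, those named are the 3 with the largest average log2 fold change each way among called genes whose log2 CPM averaged 3 or more.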

Additional observations from a re-analysis of the deposited data

Results flagged for a closer look

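For 17 genes the change from 2M to 6M differed between the strains, as tested by the interaction of strain and age in edgeR over all 18 mice. The change was lower in NOD.H-2b for all 17, and for 9.09% of all genes. Each difference is the log2 change in NOD.H-2b minus that in BALB/c. Among the oxidoreductases and lectin chaperones it was -0.76 for Calr (adjusted p = 0.00952), -0.64 for Pdia4 (0.0127), -0.50 for Pdia6 (0.0259) and -0.47 for Pdia3 (0.00706). Among the chaperones and cochaperones it was -0.60 for Sdf2l1 (0.0223), -0.49 for Hspa5 (0.0338), -0.48 for Dnajc3 (0.00936), -0.41 for Manf (0.0444) and -0.41 for Dnajb11 (0.0481). Among the degradation genes it was -0.41 for Edem1 (0.0144), -0.40 for Derl3 (0.0291), -0.39 for Sel1l (0.0121), -0.32 for Derl2 (0.0292) and -0.28 for Derl1 (0.0372). The translocation gene Sec61a1 had -0.43 (0.0201), and the sensors Eif2ak3 and Ern1 had -0.41 (0.0124) and -0.39 (0.0199). The calls of Manf and Dnajb11 were each lost when any of 8 mice was left out (adjusted p up to 0.12 and 0.124). That of Hspa5 was lost for 5 mice (0.0888) and that of Derl1 for 4 (0.098). Those of Derl2, Pdia6 and Sdf2l1 were lost for 3 mice each (0.0807, 0.0706 and 0.0578). That of Derl3 was lost for 2 mice (0.0702), and that of Ern1 for NOD.H-2b 2M replicate 1 (0.053).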

How the results depend on the processing

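With library totals alone, 18 genes were higher and 2 lower at 2M, 6 and 5 at 4M, and 6 and 9 at 6M. On average 14 were higher and 9 lower. The shares of all genes were 37.8% and 8.33%, 27.7% and 11.2%, 47.8% and 9.01%, and 53.3% and 14.3%. Called were 4 BALB/c decreases from 2M to 4M and 0 BALB/c increases from 4M to 6M, beside 2.08% and 0.0481% of all genes. The change between 2M and 6M was lower in NOD.H-2b than in BALB/c for 5 genes, beside 3.19% of all genes. On that scale the log2 fold change turned positive for Creb3l2 (0.0387), Edem1 (0.0561), Edem2 (0.0173) and Sec61a1 (0.0288) at 2M and for Xbp1 (0.0559), Ppp1r15a (0.0507), Derl1 (0.0319), Derl2 (0.0512), Ssr4 (0.0445) and Spcs1 (0.037) at 6M. Relative to the epithelial median, 3 genes called higher at 2M stayed above 0, and the sign turned for Atf6 (-0.195), Hspa5 (-0.0525), Calr (-0.106) and Ostc (-0.062) at 2M and for Xbp1 (0.0622), Ppp1r15a (0.055), Manf (0.0072), Derl1 (0.0388), Derl2 (0.0592), Ssr4 (0.0543) and Spcs1 (0.0471) at 6M.

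In 1 fit of all 18 mice, 3 genes were higher and 5 lower at 2M. BALB/c had 0 increases and 3 decreases between 2M and 4M, and NOD.H-2b had 2 decreases between 4M and 6M. The shares of all genes in that fit were 19.8% and 16.9%, 2.96% and 1.75%, and 3.12%. Without a filter on low counts, 0 genes passed 2-fold at 4M, 1 at 6M, and 5 BALB/c increases from 4M to 6M were called; with at least 10 counts in every sample, that number was 0, and with the DESeq2 Wald test 5. With a replicate block, 0 genes passed 2-fold at 4M (Trib3 lost its call), and NOD.H-2b had 1 decrease between 2M and 4M and 1 between 4M and 6M. Of 45 same-numbered pairs of mice, 17 had an r over 0.1 (range -0.519 to 0.567). Pairs with different numbers were not set beside them, so this cannot decide whether the replicate numbers pair the mice. The cause of these shifts was not tested.

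Leaving out 1 mouse at a time gave 5 to 10 genes higher and 4 to 15 lower at 2M, and 2 to 5 higher and 7 to 22 lower at 4M. Past 2-fold were 0 to 1 at 4M and 1 to 4 at 6M. BALB/c had 0 to 2 increases and 4 to 8 decreases between 2M and 4M, and 0 to 1 increases between 4M and 6M. NOD.H-2b had 0 to 17 decreases between 2M and 4M. The change between 2M and 6M was lower in NOD.H-2b than in BALB/c for 8 to 27 genes. The count of 27 genes lower at 6M stayed within 1.5 times under every setting tried but library totals. Of 1663 alternative values of 101 single results, 1332 kept direction and call, 262 lost the call, 48 were shifted relative to the epithelial median without a change of sign, and 21 turned sign. The fewest counts in 1 library were 24 for Trib3, 57 for Chac1 and 80 for Ddit3, so relative counting error is largest for these genes. The spread between mice was wide for Chac1 and Trib3 in BALB/c at 4M (coefficient of variation 98.5% and 74.6%).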
